A study of Saccharomyces cerevisiae with 17 samples.

Results

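A list of 33 autophagy-related (ATG) genes of budding yeast, Saccharomyces cerevisiae, was located in the R64 genome by their standard names, and all 33 were found among 6002 nuclear protein-coding genes. For each gene the peaks over the first 500 bp of the open reading frame (ORF), or over the whole ORF where it is shorter, were read from 4 peak lists made by chromatin immunoprecipitation and sequencing (ChIP-seq). The lists hold sites of histone H3 dimethylated (H3K4me2) or trimethylated (H3K4me3) on lysine 4. They come from cells with a deletion of SET1 and from cells with wild-type Cps25, both of strain BY4741A, taken in exponential growth in rich medium (YPD) and fixed with formaldehyde. SET1 encodes the H3K4 methyltransferase of this yeast, the catalytic subunit of COMPASS, so its deletion shows what each antibody recovers without the marks. SDC1 encodes Cps25, a relative of mammalian Dpy-30 within COMPASS. Each mark was recovered with a homemade rabbit polyclonal antibody, the same one in every genotype. The series has 17 samples. Its other genotypes, the Cps25 change A142D and a deletion of CPS25, were not analysed here, nor were the second replicates and the input of the same strain.

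With 1 list per group there is no spread between replicates and no test between groups, so every difference below describes these libraries. The lists held 927 H3K4me2 and 743 H3K4me3 peaks in set1 deletion cells, and 4393 H3K4me2 and 4087 H3K4me3 peaks in Cps25 wild-type cells. Read depth is unknown. The authors' score of a peak has no stated scale. It is therefore used as a percentile, the share of peaks of the same list with an equal or lower score. By their names, the wild-type lists are without peaks found in the set1 deletion. SET1 itself had peaks of both marks in wild-type cells, and the set1 deletion lists held none there, where the gene is missing. SDC1 had a listed peak of H3K4me3 alone in wild-type cells and an H3K4me2 peak in the set1 deletion. Whether it carried H3K4me2 in wild-type cells cannot be told from these lists. A range given in parentheses with a share is its exact 95% binomial (Clopper-Pearson) interval, which covers counting error only.

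Autophagy encloses cytoplasm in a double-membrane vesicle, the autophagosome, and delivers it to the vacuole for breakdown. In rich medium the kinase complex TORC1 keeps bulk autophagy low, while the cytoplasm-to-vacuole targeting (Cvt) pathway uses much of the same machinery to carry vacuolar hydrolases. H3K4me3 is known as a mark of the 5′ ends of transcribed genes, with H3K4me2 reaching further into the gene body.

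In set1 deletion cells few gene starts had a peak, among the ATG genes as among all genes. Of the members ATG31 alone had an H3K4me2 peak, 1 of 33 (3.03%, 0.0767 to 15.8) beside 4.75% of all genes. No member had an H3K4me3 peak (0 of 33, 0 to 10.6%), beside 3.40% of all genes. Both all-gene shares lay inside the intervals of the members. In Cps25 wild-type cells 25 of the 33 members had an H3K4me2 peak (75.8%, 57.7 to 88.9), beside 75.1% of all genes. An H3K4me3 peak was listed at 17 members (51.5%, 33.5 to 69.2), beside 68.7% of all genes. The H3K4me2 share of the ATG genes was near that of all genes, and the all-gene H3K4me3 share lay inside the interval of the members, near its upper end.

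Both marks were listed at 17 ATG genes (51.5%), beside 66.2% of all genes. H3K4me2 without H3K4me3 was listed at 8 (24.2%, 11.1 to 42.3), beside 8.85% of all genes. No member had H3K4me3 without H3K4me2, beside 2.52% of all genes, and 8 had neither mark (24.2%), beside 22.4%. Over all genes with no set1 deletion peak near the start codon, 72.5% had H3K4me3 and 72.4% had both marks. H3K4me3 without H3K4me2 was thus rare there, and the 2.52% came mostly from starts near set1 deletion peaks, which the wild-type lists leave out. The 8 members with H3K4me2 without H3K4me3 were ATG1, ATG2, ATG7, ATG11, ATG17, ATG22, ATG23 and ATG33. The 8 with neither were ATG10, ATG31, ATG32, ATG34, ATG36, ATG38, ATG39 and ATG40.

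**Figure D1:**
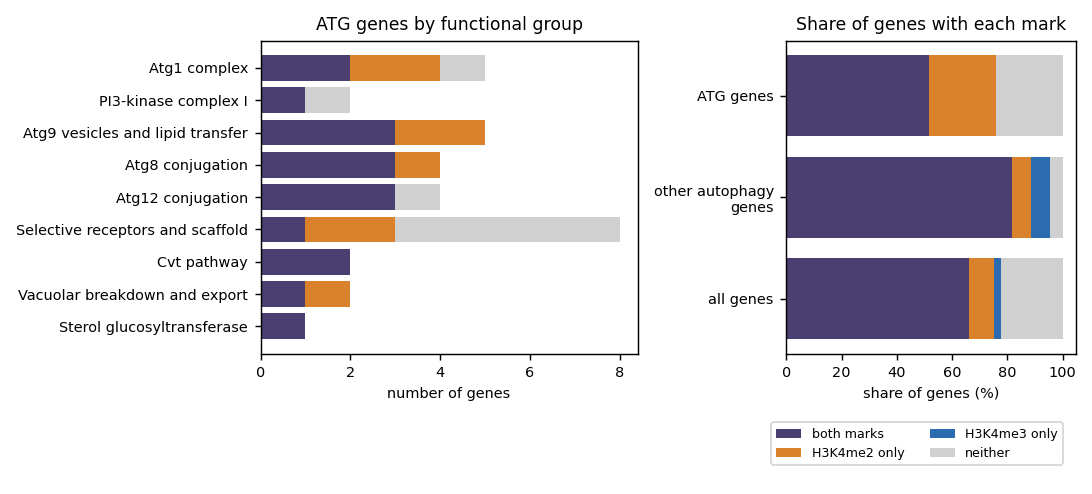
Left, number of ATG genes (horizontal axis) in each functional group with peaks of both marks, H3K4me2 only, H3K4me3 only or neither over the first 500 bp in Cps25 wild-type cells. Right, the same classes as a percentage of the 33 ATG genes, of 44 other autophagy genes and of all 6002 genes; 5 of the 8 receptors and scaffolds of selective autophagy had neither mark.

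The Atg1 complex starts autophagosome formation. ATG1 (YGL180W), its protein kinase, had an H3K4me2 peak of 253 bp in wild-type cells (chromosome VII, 159925 to 160177), which ended 112 bp after the start codon and covered 113 of the 500 bp tested. Its score stood at percentile 2.12, the lowest of the 25 ATG genes with this mark, and the nearest listed H3K4me3 peak lay 1654 bp away at GTS1. ATG13, whose product binds Atg1 and is a target of TORC1, had both marks, but the peaks lay mostly upstream of the ORF, from 350 bp before to 202 bp after the start codon for H3K4me2 and from 317 bp before to 115 bp after it for H3K4me3. Their percentiles were 38.2 and 15.4.

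The genes of the scaffold made by Atg17, Atg29 and Atg31 each had another pattern. ATG17 had H3K4me2 at percentile 11.0, and an H3K4me3 peak ended 187 bp upstream of its start codon, at the divergent gene SPP382. ATG29 had an H3K4me2 peak of 1252 bp that also held the start of its divergent neighbour REV3, and H3K4me3 in 2 short peaks of 291 and 157 bp at percentiles 13.0 and 5.43. The ORF of ATG31 (YDR022C, chromosome IV, 488072 to 488662, sacCer3 as for all positions here) lay under no listed wild-type peak. An H3K4me2 peak of 601 bp in set1 deletion cells (488572 to 489172, percentile 75.8) covered its start codon and the neighbouring tRNA gene YNCD0007C (488797 to 488870), and an H3K4me3 peak over the same tRNA gene ended 9 bp upstream of the start codon. The running numbers of the peak names skip 2 wild-type H3K4me2 peaks and 1 H3K4me3 peak between the listed peaks on both sides of ATG31. Whether ATG31 carried the marks in wild-type cells cannot be told from these lists.

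**Figure D2:**
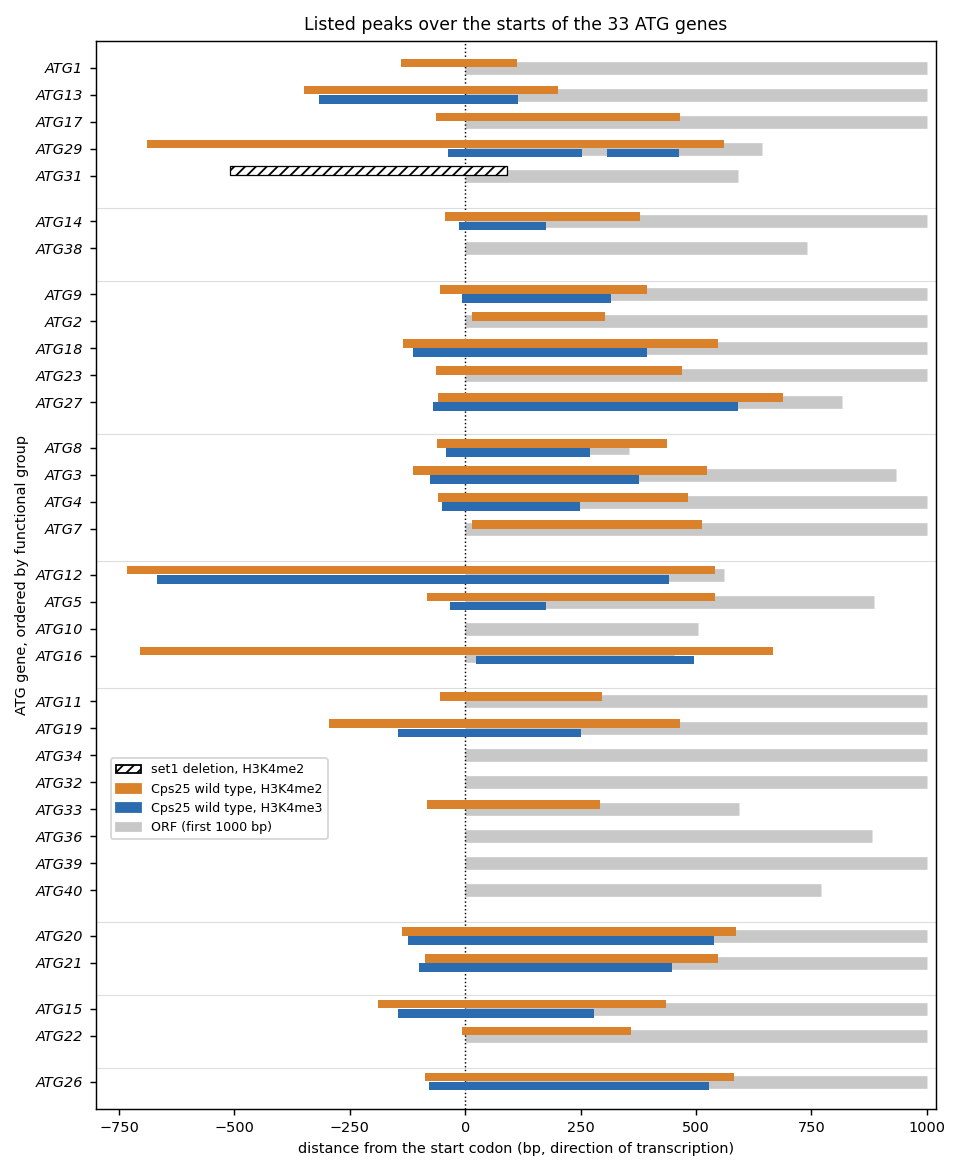
Extent of every listed peak over the first 500 bp of the 33 ATG genes, in bp from the start codon (dotted line) in the direction of transcription; grey bars are the ORFs up to 1000 bp, the hatched bar is the set1 deletion H3K4me2 peak, orange bars are H3K4me2 and blue bars H3K4me3 in Cps25 wild-type cells. Rows follow the functional groups; 8 rows have no wild-type peak, and in 17 rows the H3K4me2 bar ends further to the right than the H3K4me3 bars.

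Complex I of the phosphatidylinositol 3-kinase marks the membrane where autophagosomes form. ATG14, whose product directs the kinase to that site, had low-ranked peaks of both marks. Its H3K4me2 peak (chromosome II, 493736 to 494159) stood at percentile 11.2, and its H3K4me3 peak of 190 bp at 0.881. ATG38, whose product holds the complex together, had neither. The nearest listed peaks to its start codon lay 1070 bp (H3K4me2) and 1189 bp (H3K4me3) away at TUB4, and no peak number was skipped in that interval.

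All 5 genes for Atg9 vesicles and lipid transfer had H3K4me2 and 3 had H3K4me3, beside 75.1% and 68.7% of all genes. ATG27, a membrane protein of Atg9 transport, stood at percentile 62.5 for H3K4me2 (748 bp on chromosome X, 89408 to 90155) and 71.0 for H3K4me3 (662 bp). ATG18, a protein that binds phosphatidylinositol 3-phosphate, stood at percentiles 59.9 and 49.7. ATG9, the lipid scramblase of the vesicles, stood lower, at 17.5 for H3K4me2 and 4.43 for H3K4me3. ATG2, the lipid transfer protein, and ATG23, which helps Atg9 leave its reservoirs, had H3K4me2 alone at percentiles 5.24 and 10.2. The nearest listed H3K4me3 peaks lay 2647 bp from the ATG2 start codon, at SLA2, and 792 bp from that of ATG23, at IMD3. The ATG2 peak began 14 bp inside the ORF and covered 289 of its 4779 bp.

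The ubiquitin-like protein Atg8 is joined to phosphatidylethanolamine on the growing membrane. ATG8 itself (YBL078C, chromosome II, 80378 to 80731), with an ORF of 354 bp the shortest member, lay under H3K4me2 over its whole length and under H3K4me3 over 272 bp. Its peaks stood at percentiles 32.2 and 28.1. ATG3, the E2-like enzyme of the conjugation, stood at 37.7 and 31.7, and ATG4, the protease that processes Atg8, at 25.3 and 25.9. The 3 genes lay close together in both ranks, and all 6 of these peaks lay below the median of all genes with a peak. ATG7, the E1-like enzyme that serves both conjugation systems, had H3K4me2 alone at percentile 14.0, from 15 to 513 bp after the start codon, with the nearest listed H3K4me3 peak 1344 bp away at NMD3.

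The second ubiquitin-like system joins Atg12 to Atg5. ATG12 had the highest H3K4me2 rank of the members, percentile 83.7, and H3K4me3 at 72.9, in peaks of 1274 bp (chromosome II, 657100 to 658373) and 1110 bp that also held the start of the divergent gene YBP1. The rank of ATG12 therefore cannot be told apart from that of YBP1. ATG16, the partner of the conjugate, had an H3K4me2 peak of 1372 bp shared with the start of CVM1 (percentile 60.3) and a separate H3K4me3 peak at percentile 36.3 that began 23 bp inside the ORF. ATG5 had the widest gap between the downstream ends of the marks, with H3K4me2 over 626 bp (chromosome XVI, 271227 to 271852) at percentile 18.4 and H3K4me3 over 209 bp at percentile 0.734, the lowest H3K4me3 rank of the members. ATG10, the E2-like enzyme of this system, had neither mark, and the nearest peaks lay 664 and 774 bp away at SDH2.

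Receptors and scaffolds of selective autophagy, which bring particular cargo to the Atg8 membrane, held 5 of the 8 members with neither mark. Of 8 genes, 3 had H3K4me2, 1 had H3K4me3 and 5 had neither, beside 75.1%, 68.7% and 22.4% of all genes. ATG19, the Cvt receptor of the hydrolase precursor, had both, from 295 bp before to 466 bp after the start codon for H3K4me2 (percentile 34.3) and from 145 bp before to 251 bp after it for H3K4me3 (percentile 27.7). ATG34, next to ATG19 on chromosome XV and related to it, is the receptor of alpha-mannosidase in starved cells. It had no peak, and the nearest ones lay 2718 and 2868 bp away, at ATG19. ATG11, the scaffold that binds the receptors, and ATG33, a mitochondrial protein of mitophagy, had H3K4me2 alone at percentiles 10.7 and 14.0. H3K4me3 peaks were listed 358 bp from the ATG11 start codon, in a peak that held no start codon, and 910 bp from that of ATG33, at RSC2.

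The receptors of mitochondria (ATG32), peroxisomes (ATG36), the perinuclear endoplasmic reticulum (ATG39) and the cortical endoplasmic reticulum (ATG40) had neither mark. Listed H3K4me2 and H3K4me3 peaks nearest to their start codons lay 773 and 823 bp away at PAN6 for ATG32, and 384 and 391 bp away at the divergent gene GON7 for ATG36. They lay 599 and 589 bp away at MRPL15 for ATG39, and 1312 and 1276 bp away at RPB2 for ATG40. Each of these 4 genes therefore had listed peaks at a neighbour and none of its own. Around ATG40 only RPB2 had them. No H3K4me2 peak was listed between 616976 and 624644 on chromosome XV, and no H3K4me3 peak between 617012 and 624693. The start of PDR5, the divergent neighbour of ATG40, lies in that stretch, which held 5 H3K4me2 and 7 H3K4me3 peaks in set1 deletion cells.

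Where a peak number is skipped, a peak that was once numbered is absent from the wild-type list. At 5 of the 8 members with neither mark, ATG10, ATG32, ATG36, ATG38 and ATG39, no number was skipped in either list between the flanking peaks, so the numbering leaves no removed peak there. At ATG31, ATG34 and ATG40 numbers were skipped. The nearest set1 deletion peaks of the same antibodies lay 4968 and 5058 bp from ATG34, at ADH1, and 1896 and 1855 bp from ATG40, at PDR5. Of the 8 members with H3K4me2 alone, 6 had no skipped H3K4me3 number. The others were ATG22 and ATG33, where the nearest set1 deletion H3K4me3 peaks lay 833 bp away at SRO9 and 1018 bp away at ILV5.

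The remaining members all had H3K4me2. ATG21, a relative of ATG18 that serves the Cvt pathway, had the highest H3K4me3 rank of the members, percentile 75.6, with H3K4me2 at 82.1, and neither peak held another start codon. ATG20, a sorting nexin of the same pathway, stood at 58.3 for H3K4me2 and 57.4 for H3K4me3. ATG15, the vacuolar lipase that opens the delivered vesicles, had both marks at 41.4 and 23.7. ATG22, which exports amino acids from the vacuole, had H3K4me2 alone at 13.3, and a set1 deletion H3K4me2 peak (chromosome III, 56781 to 57052) lay 254 bp upstream of its start codon. ATG26, a sterol glucosyltransferase, had both at 46.1 and 34.1.

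The median rank of the ATG peaks was below that of all genes in both wild-type lists. The H3K4me2 percentile ran from 2.12 to 83.7 over the 25 members with a peak, with a median of 30.4, beside 53.9 over 4506 genes. Of these 25 peaks, 6 lay in the upper 50% of the list (24%, 9.36 to 45.1), beside 54.2% of all genes with the mark. The H3K4me3 percentile ran from 0.734 to 75.6 over 17 members, with a median of 28.1, beside 53.0 over 4126 genes. In this list 4 of 17 lay in the upper 50% (23.5%, 6.81 to 49.9), beside 53.2%. In 15 of the 17 genes with both marks the H3K4me3 percentile was below the H3K4me2 percentile (88.2%, 63.6 to 98.5), beside 68.8% of all genes with both marks, the exceptions being ATG4 and ATG27. The percentiles come from lists of different length, so a lower one shows no weaker mark. The authors had put each H3K4me2 peak in 1 of 2 clusters. All 25 members were in cluster 2 and 0 of 25 in cluster 1 (0 to 13.7%), beside 19.2% of all genes with the mark.

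**Figure D3:**
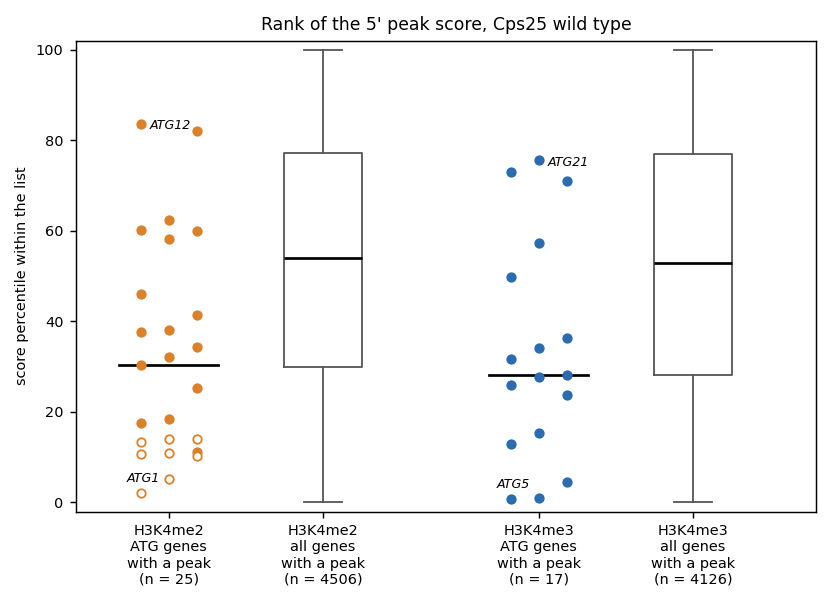
Score percentile of the 5′ peak within its own list (vertical axis) for ATG genes and for all genes with a peak in Cps25 wild-type cells. Points are ATG genes, open points those with H3K4me2 and no H3K4me3, bars are medians, and boxes show quartiles with whiskers to the lowest and highest value; the ATG medians are 30.4 and 28.1, below the all-gene medians of 53.9 and 53.0.

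Whether a member had H3K4me3 followed its H3K4me2 rank. Members with H3K4me2 alone stood between percentiles 2.12 and 14.0, with a median of 10.9 and a median peak width of 372 bp. Those with both marks stood between 11.2 and 83.7, with a median of 38.2 and a median width of 637 bp, so the ranges overlap between 11.2 and 14.0, where ATG14 has both marks and ATG7, ATG22 and ATG33 have H3K4me2 alone. Below percentile 15, a boundary chosen after the values were seen, 1 of 9 members had H3K4me3, beside 17.4% of all genes below it. At or above it 16 of 16 did, beside 97.0% of all genes. The 8 members with H3K4me2 alone had a median ORF of 1740 bp (594 bp at ATG33 to 4779 bp at ATG2), beside 1113 bp over the 531 genes of that class. With depth unknown, an H3K4me3 level under the limit of peak calling and absence of the mark cannot be told apart.

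The median ATG peak was also shorter than that of all genes, and the median distance from the end of H3K4me3 to the end of H3K4me2 was longer. The median width was 553 bp for H3K4me2, beside 706 bp over all genes with the mark, and 454 bp for H3K4me3, beside 613 bp. The median end of H3K4me2 lay 469 bp downstream of the start codon (112 bp at ATG1 to 689 bp at ATG27), beside 573 bp, and H3K4me3 at 377 bp (115 bp at ATG13 to 591 bp at ATG27), beside 494 bp. In 17 of 17 members with both marks H3K4me2 reached further into the gene than H3K4me3, beside 94.6% of all genes with both. It did so by a median of 146 bp (quartiles 98.0 and 171), beside 82 bp over 3975 genes (quartiles 43.0 and 136). The distance exceeded 82 bp in 14 of the 17 (82.4%, 56.6 to 96.2), beside 49.7% of all genes with both marks. It was longest at ATG5 (368 bp), ATG4 (235 bp) and ATG19 (215 bp), and shortest at ATG20 (47 bp) and ATG26 (55 bp). On the upstream side H3K4me2 began earlier in 15 of 17, beside 77.1% of all genes with both marks, with a median of 33 bp, beside 17 bp. Width and downstream distance also varied with rank over all genes. H3K4me2 peaks without H3K4me3 had a median percentile of 9.08 and width of 446 bp, beside 58.7 and 725 bp with both marks. In the upper 50% of each list by score the median downstream distance was 58 bp. Whether the members differ from genes of equal rank was not tested.

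**Figure D4:**
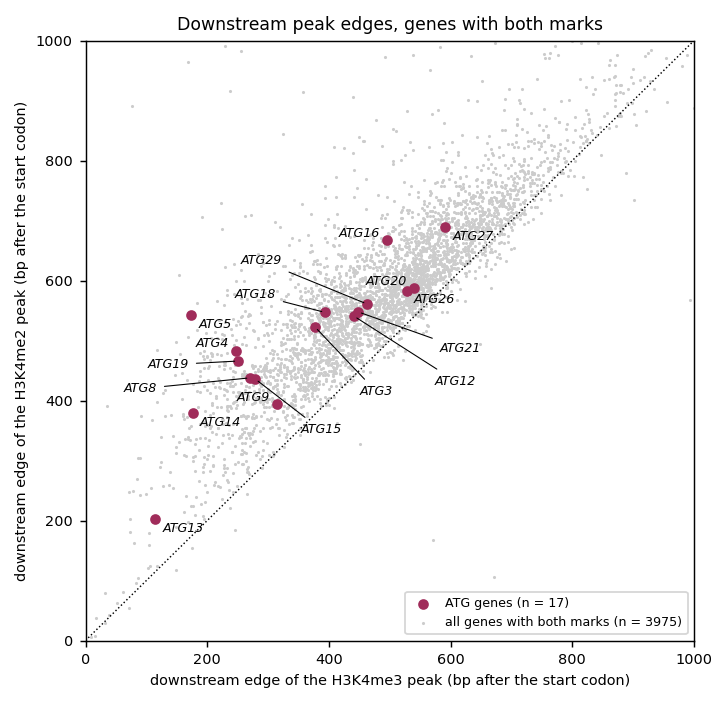
Downstream edge of the H3K4me2 peak (vertical) against that of the H3K4me3 peak (horizontal), in bp after the start codon, in Cps25 wild-type cells for ATG genes (large points) and all genes with both marks (small points). The dotted line marks equal edges; all 17 ATG genes lie above it, and 137 genes with an edge beyond 1000 bp are not drawn.

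Coverage along the genes was taken over members with or without a peak, so it mixes missing peaks with the reach of those present. Only genes whose ORF reaches a step count there, which left 33 members at 100 bp, 32 at 400 bp and 27 at 600 bp. Between 100 and 124 bp after the start codon, H3K4me2 peaks covered 74.3% of the bases of ATG genes and 73.7% of those of all genes, and H3K4me3 peaks covered 50.4% and 67.3%. Between 400 and 424 bp the shares were 50% in ATG genes and 68.8% in all genes for H3K4me2, and 21.9% and 51.6% for H3K4me3. Between 600 and 624 bp they were 3.70% and 32.0%, and 0% and 16.1%. Counted over whole ORFs, the members with a peak were again 25 for H3K4me2 and 17 for H3K4me3, beside 76.0% and 69.4% of all genes.

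**Figure D5:**
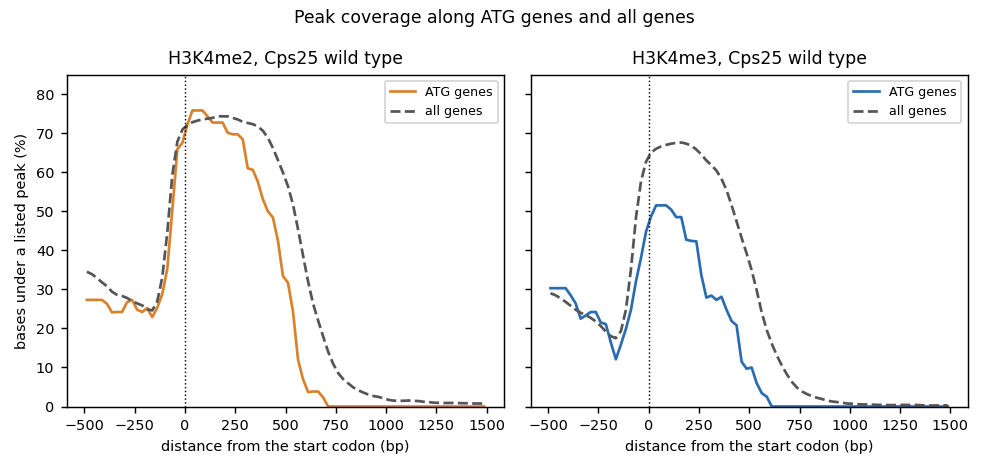
Share of bases under a listed peak (vertical axis, %) in 25 bp steps from 500 bp before to 1499 bp after the start codon (dotted line) in Cps25 wild-type cells, for 33 ATG genes (solid) and 6002 genes (dashed), using at each step the genes whose ORF reaches it. The 2 H3K4me2 curves start together after the start codon and part further on, with 50% of ATG bases and 68.8% of all bases covered from 400 bp, while the ATG curve of H3K4me3 lies below the other from the start codon on.

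Peaks shared with a neighbouring gene were about as frequent in the members as over all genes. Of the 25 members with H3K4me2, 3 had a peak holding another start codon (12.0%, 2.55 to 31.2), beside 13.8% of all genes with the mark. Of the 17 with H3K4me3, 1 did (5.88%, 0.149 to 28.7), beside 8.77%. The upstream neighbour was divergent at 9 of 17 members with both marks, at 4 of 8 with H3K4me2 alone and at 4 of 8 with neither. The share of divergent neighbours over all genes was not counted, so nothing is read from these numbers.

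The 44 other autophagy genes, in 3 lists, had both marks more often than the members, a difference that was not tested. Of them, 11 are core partners and cargo, 12 serve vacuole fusion and breakdown, and 21 are TORC1 genes and regulators of ATG transcription. Like the members, these lists were chosen with earlier results of these data known, so they are no independent comparison. The members had both marks at 17 of 33, against 36 of 44 genes (81.8%) in the 3 lists together, beside 66.2% of all genes. The H3K4me2 and H3K4me3 shares of those lists were both 88.6% (39 of 44), beside 75.1% and 68.7%. ATG41, which bears an ATG name but is not among the 33, is counted with the core partners and had both marks, at percentiles 22.2 and 12.0. Median percentiles were 30.4 in the members and 58.8 in the genes of the 3 lists for H3K4me2, and 28.1 and 57.6 for H3K4me3. Among 11 core partners and cargo genes 9 had both marks. The kinase subunits VPS34, VPS15 and VPS30 stood at H3K4me2 percentiles 32.9, 81.2 and 58.8, and APE1, the hydrolase carried by Atg19, at 40.9. AMS1, the alpha-mannosidase carried by Atg34 in starved cells, had neither mark. Genes of vacuole fusion and breakdown had both marks in 10 of 12, with median percentiles of 69.4 and 57.8. Genes of TORC1 and of regulators of ATG transcription had both in 17 of 21. GCN4, the transcriptional activator of the response to amino acid shortage, had no listed wild-type peak, and both set1 deletion lists held a peak there. SCH9, a kinase downstream of TORC1, had a listed wild-type peak of H3K4me2 alone and a set1 deletion H3K4me3 peak. Whether GCN4 carried the marks, and SCH9 H3K4me3, in wild-type cells cannot be told from these lists.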

How the data were processed

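Peak lists of 4 libraries, each replicate 1 of its group, were used; 13 other samples were not analysed here. Groups and replicate numbers came from the sample titles. The submitters' processing notes name Bowtie 1.1.2, MACS2 2.1.1 and sacCer3 without order or settings; whether the input served as control is not stated. Peak scores were deposited by the authors with no scale and served as ranks within 1 list. The file headers of the H3K4me2 wild-type list also name a nearest gene, the distance to it and a cluster number. Whether replicates were pooled is not stated, and each list belongs to 1 sample.

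Genes came from a RefSeq table of R64, the assembly behind sacCer3; 99.9% of 4018 deposited distances were met within 2 bp. Strand was read from the systematic name. ORF spans include introns. An overlap of at least 1 bp between peak and window was required; the highest score and the outermost edges were used. Intervals are Clopper-Pearson. No genome sequence was used and no motif was searched. The boundary at percentile 15 was chosen after values were seen. The interval code was tested on simulated data for 1000 genes, with 0 calls differing. Members and lists were chosen with earlier results of these data known. All 33 members are named, as are other autophagy genes with neither mark or a set1 deletion peak over the first 500 bp; VPS34, VPS15, VPS30, APE1 and ATG41 were added afterwards. Python 3.11.15, numpy 2.4.6, pandas 2.3.3, scipy 1.17.1 and matplotlib 3.10.9 were used.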

Additional observations from a re-analysis of the deposited data

How the results depend on the processing

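No paired analysis was possible because each group had 1 peak list, and for the same reason no replicate could be left out. The planned search for promoter motifs was not run, since no sequence was used. With another window, overlap, score limit or gene subset, 42 of 50 recomputed shares lay within the binomial interval of the reported share, and 11 of 11 medians within the 95% order-statistic interval of the reported median, which is wide (14.0 to 41.4 for the H3K4me2 percentile). The H3K4me2 share of the members lay above that of all genes as reported and in 4 of 10 alternatives, and below it in 6, so its side is not settled. The set1 deletion H3K4me2 share, below that of all genes as reported, lay above it in the upper 50% by score (3.03% beside 1.52%). With the upper 50% of each list by score the shares of ATG genes fell to 18.2% for H3K4me2 (all genes 40.7%) and 12.1% for H3K4me3 (36.6%). The share with both marks fell to 12.1% (32.0%). Fewer peaks were used, and only 6 of 25 H3K4me2 and 4 of 17 H3K4me3 peaks of members lay in that part. The H3K4me2 share of the members, near that of all genes as reported, was below it in this setting. The set1 deletion H3K4me2 share was 0% in 4 further settings, since ATG31, the single member counted, drops out. These were 50% of the window covered (all genes 2.32%) and 50% of the peak or window shared (3.5%). The others were ORFs of at least 1000 bp (2.2%) and an upstream neighbour on the same strand (4.32%). Away from set1 deletion peaks both set1 deletion shares are 0% by construction, for members and all genes. These alternatives are among the 50 but carry no information. The H3K4me3 share of the members was 39.4 to 54.8% in the other 9 alternatives, below the share of all genes in each. The median H3K4me2 percentile of the members was 17.5 in ORFs of at least 1000 bp (17 members), beside 54.7 over all such genes; the median distance between the downstream ends of the marks was 99 to 150 bp, beside 58 to 85 bp. A window from 250 bp upstream added the H3K4me3 peak of the SPP382 start to ATG17. Depth limits the reading of every missing peak, and nothing here measures how much of a mark a gene carried.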

Other observations

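The nearest gene deposited with each H3K4me2 peak of Cps25 wild-type cells was the ATG gene itself for 2 of the 25 members with a peak, ATG2 and ATG7, whose peaks begin inside the ORF. For the other 23, whose peaks cover the start codon, a neighbour was named, such as YNR008W at ATG3. Over the whole list, 4 of 3716 peaks holding exactly 1 start codon (0.108%) name the gene of that start. The effect on the deposited gene ontology tables was not tested.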
